A study of Mus musculus with 4 samples.

Results

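Nr4a1 (XLOC_010700), Nr4a3 (XLOC_021418), Sik1 (XLOC_013788) and Irs2 (XLOC_030957), 4 genes known to respond to cyclic AMP, were described in poly(A) RNA of sham-operated mouse hearts. The genes were chosen by their place in the table of 35299 loci and by that knowledge, with their values in these hearts already seen. Their levels are therefore given as a description, with no test. The 4 libraries belong to 1 group, Sham. The mice were C57BL/6J and 12 weeks old, and the tissue was collected 2 weeks after sham surgery at the position that would lie beside an infarct. No genotype other than C57BL/6J and no drug is named in the labels. For replicate 4 the free-text description names the edge of an infarct with no mention of a sham. Its other labels say sham, and it was kept in the group. The table heads its columns 3RL, 7LR, 8R and 12RL, names that no label carries, so it is not known which of them is replicate 4, nor whether each came from a separate heart.

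Cyclic AMP activates protein kinase A, which phosphorylates the transcription factor CREB, and CREB acts on its target genes with coactivators of the CRTC family. Nr4a1 and Nr4a3 encode orphan nuclear receptors whose genes are induced early after many stimuli. Sik1 encodes salt-inducible kinase 1, a CREB target that phosphorylates CRTC proteins and class IIa histone deacetylases and so keeps them out of the nucleus. Irs2 encodes a docking protein of the insulin receptor, and its gene is induced by CREB in the liver.

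The libraries held 108345923 (12RL) to 160670654 (8R) recovered reads, and 29.2% to 32.3% of them were mitochondrial. Each of the 4 genes was covered deeply: the lowest count of reads recovered was 708, of Nr4a1 in 12RL, with an exact 95% Poisson interval of 656.8 to 762.1. Intervals cover counting error only, and reads are not independent molecules. The deposited values are read counts divided by the authors' size factors and are called normalised reads below. Cardiomyocyte markers were high in every library, with Actn2, which encodes alpha-actinin of the sarcomere, at 346606 to 396052 normalised reads.

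The promoters of the receptor genes are shown because their letters bear on the known response to cyclic AMP. RefSeq gives a window of 300 bases, 250 before the start of the gene and 50 from it on, on the GRCm38.p6 build. The table holds no entry for Sik1. The 250 bases before the start follow, 5′ to 3′ on the strand of the gene. Capitals mark each match of TGACG or its reverse complement CGTCA, the core of the cyclic AMP response element (CRE). The windows lie at chr15:101266596-101266845 on the plus strand for Nr4a1, chr4:48045055-48045304 on the plus strand for Nr4a3 and chr8:11008930-11009179 on the minus strand for Irs2.
Nr4a1: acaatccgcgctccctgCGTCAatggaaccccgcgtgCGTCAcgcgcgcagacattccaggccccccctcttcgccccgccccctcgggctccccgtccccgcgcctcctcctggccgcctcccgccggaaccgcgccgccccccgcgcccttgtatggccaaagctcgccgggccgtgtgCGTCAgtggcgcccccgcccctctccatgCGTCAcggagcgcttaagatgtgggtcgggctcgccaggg
Nr4a3: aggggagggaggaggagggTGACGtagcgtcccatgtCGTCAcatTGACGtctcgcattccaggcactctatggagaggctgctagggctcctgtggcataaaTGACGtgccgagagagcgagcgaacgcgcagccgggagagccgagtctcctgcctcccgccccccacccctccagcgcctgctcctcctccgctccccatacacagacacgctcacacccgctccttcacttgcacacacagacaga
Irs2: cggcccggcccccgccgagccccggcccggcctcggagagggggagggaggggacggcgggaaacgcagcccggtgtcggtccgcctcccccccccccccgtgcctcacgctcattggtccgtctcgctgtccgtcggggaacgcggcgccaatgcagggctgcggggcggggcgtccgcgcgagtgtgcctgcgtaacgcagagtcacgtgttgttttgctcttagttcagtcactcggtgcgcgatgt

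The CRE core was found 4 times in the promoter window of Nr4a1, 4 times in that of Nr4a3 and 0 times in that of Irs2. Counted from the RefSeq start, the matches of Nr4a1 began at -233, -213, -69 and -40, all 4 on the minus strand of the gene. Those of Nr4a3 began at -231, -213, -205 and -147, with that at -213 on the minus strand and the other 3 on the plus strand. Among all 32851 windows of 27025 genes, 20.8% held at least 1 core and 0.231% held at least 4. The related receptor gene Nr4a2, which is not among the 4 genes, also held 4. The G and C content was 72.3% in the window of Nr4a1, 64.7% in Nr4a3, 72% in Irs2 and 81.7% in Nr4a2. Its median over all windows was 52.7%, and the shares of windows given here are not matched for it. The whole CRE, TGACGTCA, which contains the core on both strands, was found in 1.79% of windows and in none of these. The NBRE (AAAGGTCA), the element that NR4A proteins bind, was likewise absent from these windows, as were the CArG box of serum response factor, the FOXO site (TGTTTAC) and, in Nr4a1, Nr4a3 and Irs2, the TATA box (TATAAA). They were found in 1.51%, 1.63%, 3.65% and 13.6% of all windows. Since the genes were chosen as known CREB targets, the matches are a description, and a match is not a bound site. The Nr4a1 window is set on a start that is also the first base of a GENCODE transcript. For Nr4a3 and Irs2, the RefSeq start lies at 74 and -471 bases from the nearest GENCODE start, with positive values downstream. The Irs2 window thus ends upstream of that GENCODE start, and its 0 matches do not describe the bases next to it.

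**Figure D1:**
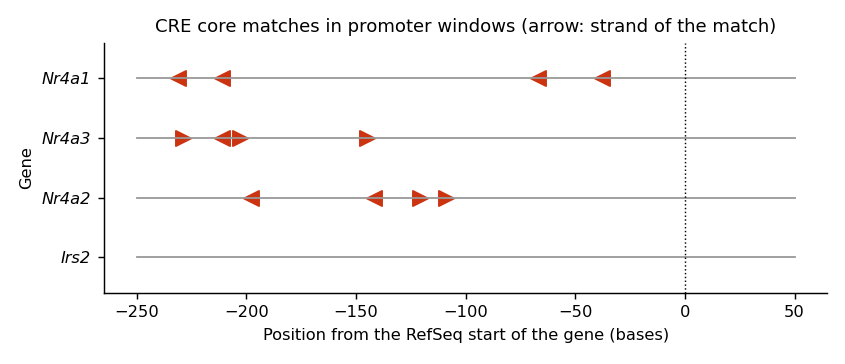
Positions of the CRE core (TGACG or CGTCA) in the RefSeq promoter windows, as bases from the RefSeq start of the gene (dotted line); arrows point along the strand of the match. Nr4a1, Nr4a3 and Nr4a2 each hold 4 matches, all before the start, and Irs2 holds 0. The Irs2 window ends upstream of the nearest GENCODE start.

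Nr4a1 was the most variable of the 4 genes. Its normalised reads were 1135 in library 3RL, 6521 in library 7LR, 24356 in library 8R and 1116 in library 12RL. Library 8R stood far above the rest, 7LR lay between, and 3RL and 12RL were close to each other. The highest library was 21.8 times the lowest and 3.74 times the next. The mean was 8282 ± 11014 (SD, n = 4), so that the spread exceeded the mean. On the log2(value + 1) scale, 8R lay 3.59 above the mean of the other 3 libraries, and 7LR lay 2.53 above the mean of 3RL and 12RL.

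Nr4a3 stood at 1292 normalised reads in 3RL, 1860 in 7LR, 1949 in 12RL and 12477 in 8R. Here 8R alone stood apart. The next highest library was 12RL, and 8R was 6.40 times it. The mean was 4394 ± 5396 (SD, n = 4). Library 8R lay 2.90 log2 units above the mean of the others. Unlike Nr4a1, Nr4a3 was not clearly higher in 7LR, whose value was 1.44 times that of 3RL and 0.954 times that of 12RL.

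Sik1 was high in both 8R and 7LR. It reached 24409 normalised reads in 8R and 13171 in 7LR, and was at 3592 in 3RL and 3242 in 12RL. Library 7LR was closer to 8R here than for the other genes, and 8R was 1.85 times 7LR. The mean was 11104 ± 9993 (SD, n = 4). Library 8R lay 2.19 log2 units above the mean of the others, the smallest such value of the 4 genes, and 7LR lay 1.95 above the mean of 3RL and 12RL.

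Irs2 had 19723 normalised reads in 8R, 4571 in 7LR, 2043 in 12RL and 1524 in 3RL. The order of the libraries was 8R, 7LR, 12RL, 3RL. Library 8R was 4.31 times 7LR and 12.9 times 3RL, and the mean was 6966 ± 8609 (SD, n = 4). Library 7LR lay 1.37 log2 units above the mean of 3RL and 12RL. Library 8R lay 3.02 log2 units above the mean of the others.

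**Figure D2:**
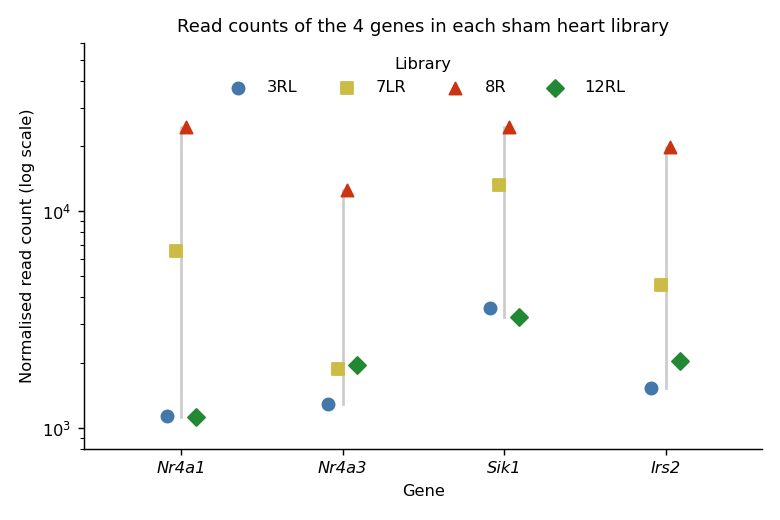
Normalised read counts (log scale) of the 4 genes, with 1 point per library and a grey line from the lowest to the highest library. Library 8R is the highest for each gene, at 12477 to 24409, and 7LR is next for Nr4a1, Sik1 and Irs2.

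All 4 genes were highest in 8R, as were 38.6% of the 14424 loci whose mean reached 50 normalised reads. All 4 lay at least 1 log2 unit above the mean of the other libraries in 8R, where 0.61% of those loci did. In 7LR, Nr4a1 (1.06) and Sik1 (1.00) lay at least 1 log2 unit above the mean of the other libraries, beside 0.527% of loci. In 3RL all 4 genes lay at least 1 unit below, from -1.46 to -2.31, beside 0.839% of loci, and in 12RL all but Nr4a3 did, beside 0.721%. Each such difference has 8R in the libraries it is set against. For Nr4a1, Sik1 and Irs2, 8R was highest and 7LR next, an order shown by 8.41% of loci. These values had been seen when the genes were chosen, so nothing is read from their counts. The median over all loci of 8R minus the others was 0.06. The median of loci of like transcript length was -0.03 to 0.07 in 8R around the 4 genes. These deviations are from the mean of all 4 libraries, a different scale.

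The range over libraries, highest minus lowest log2(value + 1), was 4.45 for Nr4a1, 3.69 for Irs2, 3.27 for Nr4a3 and 2.91 for Sik1. These ranked 10, 16, 18 and 25 among 14424 loci, whose median range was 0.34 and whose 99th percentile was 1.81. The cut of the 100 loci of largest range fell between 1.974 inside and 1.973 outside, below all 4 genes. Without 8R, the range was 2.55 for Nr4a1 (rank 22), 2.02 for Sik1 (rank 54), 1.58 for Irs2 (rank 144) and 0.59 for Nr4a3 (rank 2095), so the place of Irs2 and Nr4a3 among these loci rested on that library.

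**Figure D3:**
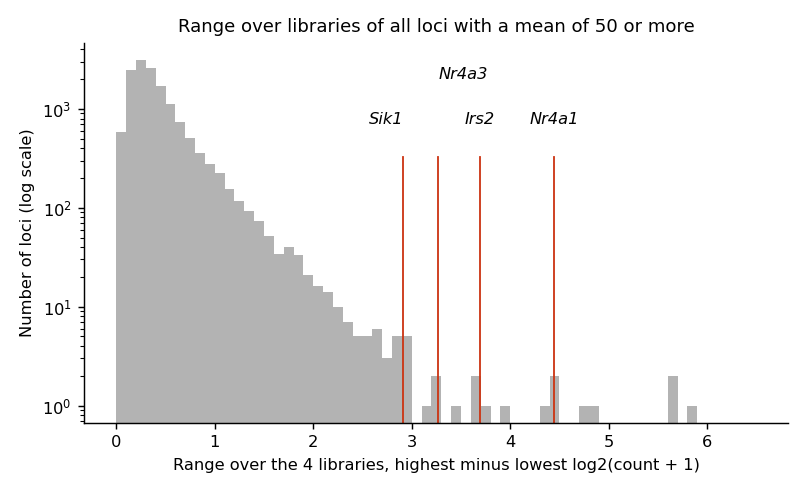
Histogram of the range over the 4 libraries (log2 units) for the 14424 loci whose mean reached 50 normalised reads, with the number of loci on a log scale and the 4 genes as lines. The genes lie between 2.91 and 4.45, and the median of all loci is 0.34.

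Levels of different genes were compared per kilobase of the longest UCSC model. The mean was 3369 ± 4481 normalised reads per kb for Nr4a1, 2463 ± 2216 for Sik1, 1736 ± 2146 for Irs2 and 1724 ± 2117 for Nr4a3 (SD, n = 4). The differences between neighbours in this order were smaller than these SDs, which hold the spread over libraries. Within libraries, Sik1 exceeded Irs2 in each: 797 and 380 in 3RL, 2921 and 1139 in 7LR, 5413 and 4916 in 8R, 719 and 509 in 12RL. Nr4a1 exceeded Sik1 in 8R (9909 and 5413) and lay below it in 3RL, 7LR and 12RL. Irs2 exceeded Nr4a3 in 7LR and 8R only. In 8R, 87.1% (Nr4a3) to 93.7% (Nr4a1) of 13251 loci were lower per kb, whereas in 3RL only 32.1% (Irs2) to 49.3% (Sik1) were. By this length, the genes thus ran from the middle or lower part of the expressed loci in 3RL to the upper part in 8R. Their place among all loci was not computed with another length. The order of the 4 genes depended on the length used. With the union of all exons it was Irs2, Nr4a1, Sik1, Nr4a3, and with the median UCSC length it was Nr4a1, Nr4a3, Sik1, Irs2. It also depended on the libraries. Without 8R it was Sik1, Nr4a1, Irs2, Nr4a3, and without 7LR it was Nr4a1, Sik1, Nr4a3, Irs2.

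The transcript models deposited with the table, pooled over libraries and given on mm9, add ends and starts that the UCSC models of these genes lack. The Nr4a1 locus (chr15, 101084668 to 101105223, plus strand) held 6 models, 1 from UCSC with 7 exons and 5 assembled ones. Of the assembled models, 4 were new splice forms whose most distant start lay 12625 bases upstream of the UCSC start. They joined exons there to exon 2 of the UCSC model, where the coding sequence begins. The form of 8 exons and 2582 bases had the introns of a GENCODE transcript of Nr4a1, and its exons 3 to 8 correspond to the 1803 coding bases. The remaining assembled model was a single exon of 3870 bases.

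The Nr4a3 locus (chr4, 48058015 to 48099485, plus strand) held 4 UCSC models and 1 assembled model of 8 exons. The last exon of the assembled model was 3509 bases long, against 248 in the longest UCSC model and 3341 in the GENCODE transcript of the same introns. The Sik1 locus (chr17, 31972741 to 31992737, minus strand) held 1 UCSC and 1 assembled model, both of 14 exons. The last exon was 10848 bases in the assembled model and 2394 in the UCSC and GENCODE models, so the assembled one ran 8454 bases further. The Irs2 locus (chr8, 10984675 to 11008527, minus strand) held 1 UCSC and 1 assembled model of 2 exons. Its last exon was 2340 bases in the assembled model, 51 in the UCSC model and 2334 in the GENCODE transcript. In Nr4a3 and Irs2 the longer last exon is thus close to that of the later annotation, and in Sik1 it is longer than that. The table gives 1 value per locus, so the share of each start or end in these values is not known.

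**Figure D4:**
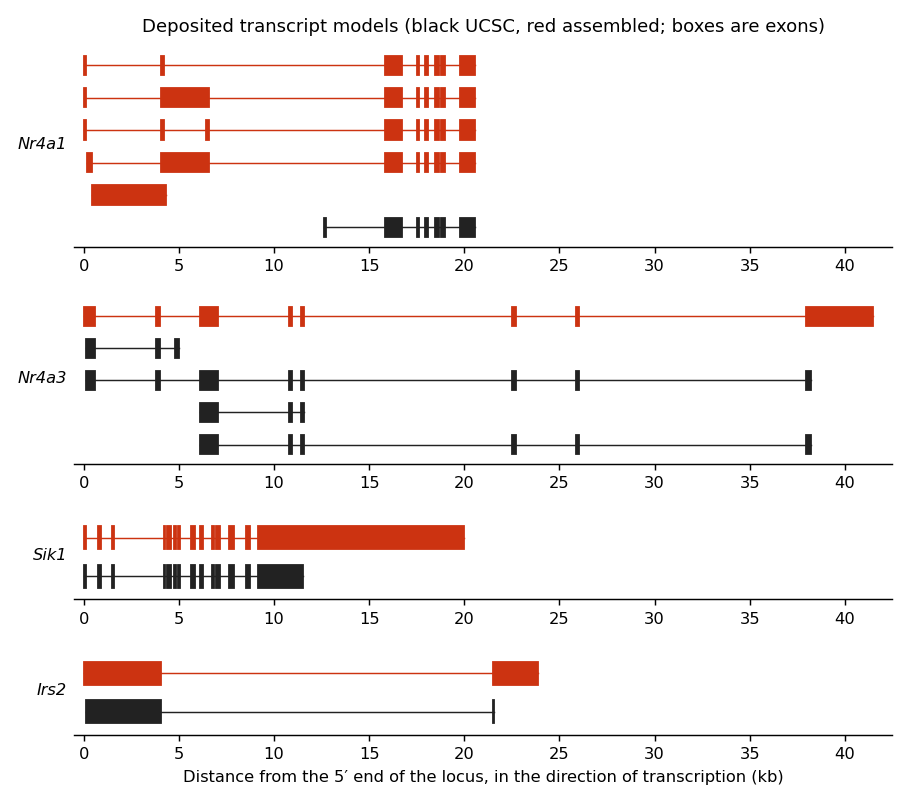
Exons (boxes) and introns (lines) of the deposited models of each locus, by distance in kb from the 5′ end of the locus, with UCSC models in black and assembled models in red. The assembled models start up to 12625 bases upstream in Nr4a1 and end 3261 bases further in Nr4a3, 8454 in Sik1 and 2289 in Irs2.

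Loci next to Nr4a1 and Sik1 followed them in 8R only in part, and by less. The 4 loci next to Nr4a3 with a mean of 10 or more did not follow it, at -1.31 to -0.02 log2 units from the mean of the other libraries in 8R. The genes were chosen with their values seen, so nothing is concluded from this. Irs2 had no neighbour with a mean of 10 or more. Of 19 loci within 50 kb, 15 had a mean of 10 or more, and 7 of these had a UCSC model. In 8R those 7, all near Nr4a1 or Nr4a3, lay -0.27 to 0.66 log2 units from the other libraries. Atg101, an autophagy gene 9509 bases downstream of Nr4a1, was at 0.29, and the highest of the 7 was 6030408B16Rik, 18420 bases downstream of Nr4a1. Stx17, a syntaxin gene 38306 bases downstream of Nr4a3, was at -0.08. Near Nr4a1, Grasp, Atg101, 6030408B16Rik and a locus at chr15 101129084 to 101131396 were highest in 8R and next in 7LR, as Nr4a1 was. Of the loci with a mean of 50 or more, 8.41% had that order, and nothing is read from the count. For Grasp and Atg101, 7LR was little above 3RL, at 1447 beside 1387 and 2061 beside 2032 normalised reads. Acvr1b was highest in 7LR, and Gm35853 and A330009N23Rik were highest in 3RL. The 4 loci near Sik1, with means of 10.4 to 35.7, all lay above the mean of the other libraries in 8R, at 0.43 to 1.39. That at chr17 32042156 to 32043135 was nevertheless highest in 3RL, at 17.9 normalised reads beside 13.6 in 8R and 3.15 in 12RL. The share of all loci above that mean in 8R is not given here, so nothing is read from this count. Of the 8 loci without a UCSC model, 2 lay at least 1 log2 unit above the others in 8R, both near Sik1. Both were low, and among the 4488 loci with a mean of 10 to 50 normalised reads 4.59% lay as far above.

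One of these, an unspliced locus at chr17 31992798 to 31994703 with no strand, lies 61 bases upstream of the start of Sik1. It was at 9.55, 20.5, 39.8 and 15.8 normalised reads in 3RL, 7LR, 8R and 12RL, from 8 to 35 recovered reads. It was highest in 8R and next in 7LR, as was Sik1, but lowest in 3RL, where Sik1 was lowest in 12RL. The other, at chr17 31937405 to 31939773, was at 5.97, 12.5, 23.9 and 12.6. A locus 1968 bases upstream of Nr4a3, at chr4 48049223 to 48056047, went the other way, at 50.1, 156, 39.8 and 128, so that 8R, the highest library for Nr4a3, was its lowest. Whether the libraries keep strand is not given in the sources used here. Antisense loci overlap Sik1, with a mean of 0.853, and Irs2, 9530052E02Rik with a mean of 8.74, and both means are small beside those of the genes.

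The loci most like each gene were found by the root mean square difference of log2 deviations over the 4 libraries, among the 14424 loci named above. Nearest to Nr4a1 was Fosb, which encodes an AP-1 subunit, at 32.2, 161, 899 and 37.8 normalised reads in 3RL, 7LR, 8R and 12RL (difference 0.23). An unnamed locus at chr18 61637027 to 61644370 (0.47) and then Irs2 (0.56) followed. Nearest to Nr4a3 was Fos, another AP-1 subunit, at 105, 175, 753 and 183 (0.26), followed by unnamed loci at chr17 35106304 to 35109101 (0.31) and chr16 94943445 to 94970587 (0.41). Nearest to Irs2 was Atf3, which encodes a stress-induced transcription factor, at 395, 1195, 8258 and 807 (0.32), then a locus at chr15 32808565 to 32812374 (0.43) and Nr4a3 (0.47). Nearest to Sik1 was Runx3, a transcription factor gene, at 105, 326, 401 and 96.2 (0.35), then a locus at chr17 28660226 to 28662268 (0.38) and Thbs1, the gene of thrombospondin 1 (0.41). The 2 Nr4a receptors were less alike, at 1.01, than either was to Irs2. These likenesses rest on 4 values each.

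Genes of the pathway that acts on CREB lay closer to the other libraries in 8R than the 4 genes did. Most loci did so too, since the 4 genes were chosen with their values seen, and nothing is concluded from this. Of 20 listed, 17 had a locus of their own, and 0 of 17 lay 1 log2 unit or more above or below the other libraries in 8R, where 0.61% of loci lay above and 0.763% below, so that this count is near the background. They ran from -0.65 to 0.38, and their median was -0.09, beside 0.06 over all loci. Gnas, which encodes the stimulatory G protein, was at 107174 (7LR) to 123020 (8R) normalised reads. Creb1 itself was at 3568, 4089, 3840 and 4803 in 3RL, 7LR, 8R and 12RL. The extremes of the list in 8R were Crem, which encodes a CREB-related modulator and was at 0.38 log2 units, and Pde3a, a cyclic AMP phosphodiesterase gene, at -0.65. The remaining listed genes had no locus of their own and are not included.

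Other known CREB targets were in part like the 4 genes. All 7 listed had a locus, 6 were highest in 8R (beside 38.6% of loci, and only 4 after scaling to equal totals, when Per1 and Rgs2 were not), and 1, Nr4a2, lay at least 1 log2 unit above the others. That receptor gene was at 140, 202, 347 and 162 normalised reads in 3RL, 7LR, 8R and 12RL. Their median in 8R was 0.58, beside 0.06 over all loci and 2.19 to 3.59 for the 4 genes. Per1, a clock gene, was at 10079, 17440, 18176 and 11196, and Rgs2, an inhibitor of G protein signalling, was at 3323, 5537, 5924 and 3380. Dusp1, a phosphatase of MAP kinases, was at 4666, 6983, 8382 and 5985. In 4 of the 7, Nr4a2, Per1, Rgs2 and Dusp1, 7LR was next to 8R, as in Nr4a1, Sik1 and Irs2. Of all loci, 8.41% had that order. The list was chosen with earlier results of these data known, so nothing is read from its counts beside the shares of all loci. Ppargc1a, which encodes a coactivator of mitochondrial genes, was lowest in 8R, at 23338, and at 26250, 34493 and 35406 in 3RL, 7LR and 12RL.

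The kinases, deacetylases and transcription factors around Sik1 lay closer to the other libraries in 8R than Sik1 did. So did the genes around Irs2 beside Irs2. Sik1 and Irs2 were chosen with their values seen, and most loci lay closer too, so nothing is concluded from this. Of 10 listed genes of the SIK and class IIa HDAC axis, 9 had a locus and 0 lay 1 log2 unit or more above or below the others in 8R, beside 0.61% and 0.763% of all loci, so a count of 0 is near the background. They ran from -0.40 to 0.23, with a median of -0.13, beside 2.19 for Sik1. Sik2 was at 1429, 1946, 1369 and 2121 normalised reads and Sik3 at 15358, 14194, 13341 and 17580 in 3RL, 7LR, 8R and 12RL. Sik2 and Sik3, relatives of Sik1, were thus both lowest in 8R. Of 10 insulin signalling genes, 10 had a locus, 0 passed 1 log2 unit in 8R, beside the same small shares of all loci, and their values ran from -0.46 to 0.09, with a median of -0.12, beside 3.02 for Irs2. Irs1, the other main docking protein, was at 4731, 4766, 4221 and 5983, and Insr, the receptor, at 30279, 37468, 28564 and 39250. Of the 3 retinoid X receptors that pair with NR4A1, the values in 8R ran from -0.0033 to 0.18, with a median of 0.17.

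**Figure D5:**
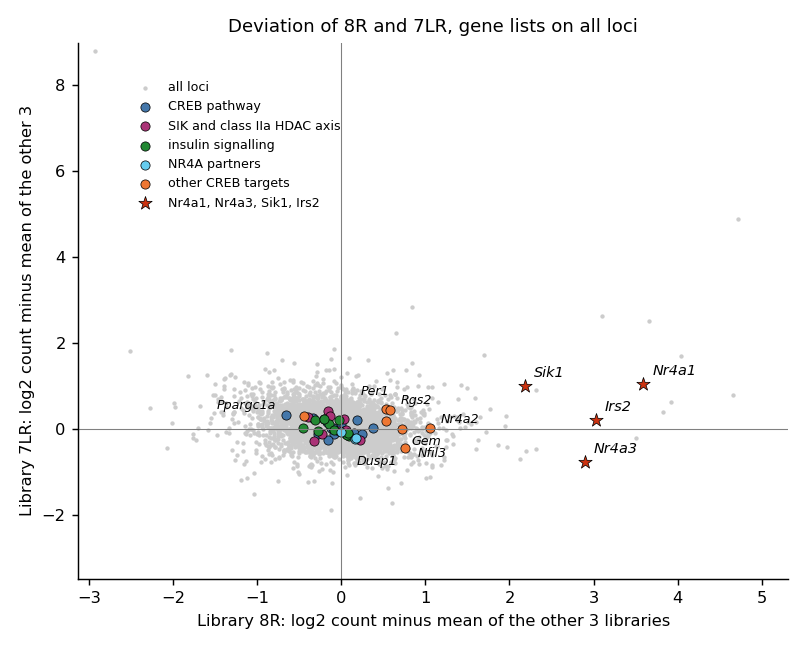
Log2 value of library 8R minus the mean of the other 3 (x axis) against the same for 7LR (y axis), for the same 14424 loci, the listed genes and the 4 genes (stars). The 4 genes lie between 2.19 and 3.59 on the x axis, and Nr4a2, at 1.06, is the list gene nearest to them.

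Markers of other cell types did not all follow the order of the 4 genes. In bulk tissue, fewer cells of a type and less RNA per cell cannot be told apart. Summed over their matched markers in 3RL, 7LR, 8R and 12RL, the 3 cardiomyocyte genes reached 1402532, 1526835, 1502414 and 1599789 normalised reads. The 4 endothelial genes reached 120870, 94726, 88010 and 94300, and the 4 fibroblast genes 123130, 98538, 110724 and 83499. The 3 macrophage and leukocyte genes reached 10085, 8180, 8691 and 7500, and the 3 smooth muscle genes 27372, 20639, 19939 and 21679. The sums rest on their most abundant members. Of single genes, 2 of the 3 cardiomyocyte genes (Actn2 and Pln) were highest in 8R, beside 38.6% of loci, and 1 (Ryr2) in 12RL. All 4 endothelial genes were highest in 3RL. Of the 10 matched fibroblast, macrophage and leukocyte, and smooth muscle genes, 1 (Dcn) was highest in 8R. Pdgfra, Ptprc and Myh11 were highest in 12RL, and the remaining 6 in 3RL. The share of all loci highest in 3RL or 12RL is not given here, so nothing is read from these counts. Of 3 red blood cell genes, 1 had a locus of its own. This was Alas2, the heme synthesis enzyme of red cells, at 2441, 4086, 5506 and 3317, which was highest in 8R and next in 7LR. A merged locus that holds the beta-globin gene Hbb-bs had the same order, at 31209, 48324, 80040 and 45795, and Hba-a1 was not matched. The part of blood in the values of the 4 genes was not tested. No matched marker was at 0.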

How the data were processed

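The table of the 4 Sham libraries holds signal values: the authors divided each library's read counts by a size factor. A file of transcript models gives exon positions on mm9 as deposited. The submitters' processing notes name DESeq, HTSeq 0.5.4p2, Cufflinks 2.0.2 and TopHat2 2.0.5 and the build mm9. Counting mode and strandedness are not given there or elsewhere in these sources. Whole reads were recovered in 100% of values within 0.001.

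Values were taken as log2(value + 1) from the deposited signal, and ranks and shares used loci whose mean reached 50. The files give no gene symbols. A symbol was given to a locus where intron and internal exon lengths of a UCSC model equalled those of transcripts of exactly 1 GENCODE M21 gene, which held for 35597 of 43104 models with 2 or more exons and tied 18278 loci to 1 symbol. This replaced a planned match of gene lengths, because the reference table has no strand. The 4 genes and all lists were chosen with earlier results of these data known. Named loci are the 4 genes, listed genes, loci within 50 kb with a mean of 10 or more, and the 3 loci most like each gene. Alternatives were other scalings, among them TMM (edgeR 4.0.16 in R 4.3.3), pseudocounts, minimum means, lengths and leaving out each library. Steps ran in Python 3.11.15, numpy 2.4.6, scipy 1.17.1, pandas 2.3.3 and matplotlib 3.10.9 and were tested on simulated data.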

Additional observations from a re-analysis of the deposited data

Results flagged for a closer look

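Among 79 loci looked at, 64 listed genes and markers and 15 neighbours of the 4 genes, 4 had 1 library whose gap to the nearest of the others was, as a share of the range of the 4 values, above Dixon's 95% critical value, and chance alone flags about 1 in 20 groups. The 4 genes themselves were left out, since their values chose them. Adcy5, an adenylyl cyclase gene of the heart, was at 17504 normalised reads in 12RL and 14754 in the next, 3RL. Pde4b, a cyclic AMP phosphodiesterase gene, was at 3073 in 12RL and at 4357 in the next, 3RL. Pecam1, an endothelial marker, was at 27875 in 3RL and 22705 in the next, 8R. Myh11, a smooth muscle myosin gene, was at 6279 in 8R and 8689 in the next, 3RL.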

How the results depend on the processing

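Of 105 values recomputed under alternatives, 103 stayed within the limits set for a change. For a log2 difference the limit was the gene's own SD over the libraries, 1.43 to 2.16 log2 units, a spread that includes 8R. For a count it was a fixed ratio, which let a change from 6 to 4 pass. These limits are wide, so nothing is concluded from the 103. The sign changed in 1 of the 105 values, the 7LR difference of Nr4a3, which was 0.23 and became -0.07 without 3RL. The 8R difference of each gene kept its direction, at 2.06 to 3.58 under other scalings, a pseudocount of 10 and the length correction, and at 1.83 to 4.43 when a library was left out. The number of the 4 genes among the 100 loci of largest range was 4, and 1 (Nr4a1) with no minimum mean, where low loci enter the ranking, and 3 with a minimum of 10, without Sik1. When each library was left out it was 2 to 4, with 2 (Nr4a1 and Sik1) without 8R. The 7LR difference of Nr4a3 was 0.53 without 12RL, so its sign is not settled. The number of other CREB targets highest in 8R, a count that was not planned beforehand, was 6. It was 4 after scaling to equal totals, where Per1 and Rgs2 were no longer highest. The cause of this change was not tested. Scaling to equal totals lowered the median of all loci in 8R by 0.10. No paired analysis was possible because the series holds 1 group and its columns carry no replicate numbers.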
